A study of Mus musculus with 144 samples.

Results

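Aminoacyl-tRNA synthetases are the enzymes that attach each amino acid to its transfer RNA. Of 21869 genes listed in the count tables, 36 belonged to this family and were chosen by symbol: 20 genes whose names carry no final 2 encode the cytosolic enzymes, and 16 genes whose names end in 2 encode the mitochondrial ones. All 36 genes were found in every table and all 36 passed the filter on low counts in both tissues. The study asked how daytime feeding acts on daily profiles of gene expression, and measured polyadenylated RNA in liver and in brown adipose tissue (BAT) of wild-type C57BL/6J male mice, 6 months old, every 4 h over 2 days. The series text places sampling in constant darkness, where the labels give a light and dark cycle. Liver came from 5 feeding regimens of 24 libraries each. CR-day-6h and CR-night-6h mice (CR-day and CR-night below) ate 70% of their baseline intake within 6 h at the start of the light or of the dark phase. TR-day-6h and TR-night-6h mice (TR-day and TR-night) had unlimited food in the same 6 h windows, and ad libitum (AL) mice had food at all hours. BAT came from CR-day and AL mice only, with 12 samples each and counts for 11 and 12 of them. All mice lived alone with a running wheel and were on their regimen for 10 weeks. Circadian time (CT) 0 is the start of the subjective day, and libraries taken 24 h apart are read as the same CT, which leaves 4 liver libraries and 2 BAT libraries at each CT of a regimen, or 1 at CT 0 of BAT CR-day.

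Charging of transfer RNA is the step at which the genetic code is read chemically, and every protein made in the cell or in its mitochondria draws on it. In the cytosol Eprs, Iars, Lars, Mars, Qars, Rars, Kars and Dars are held in a multi-synthetase complex by scaffold proteins, while most of the other enzymes act alone. Eprs charges both glutamate and proline, Farsa and Farsb are the subunits of 1 enzyme, and Gars and Kars each also encode the mitochondrial form. In mitochondria no glutaminyl enzyme exists: Ears2 charges glutamate onto the glutamine transfer RNA and an amidotransferase converts it. Many cytosolic synthetase genes are known targets of ATF4, the transcription factor of the amino acid response, which binds the C/EBP-ATF response element.

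Promoters are printed for the 5 cytosolic genes with a match upstream of the start to that element or to the E-box, the element that clock proteins bind. RefSeq promoters (GRCm38.p6) of 300 bases, 250 before and 50 after the start, were matched by symbol or synonym for 27 of the 36 genes. Each line gives the 150 bases before the start, 5′ to 3′ on the gene's strand, and capitals mark TGATGNAA or its reverse complement (TTGCATCA, TTTCATCA) and CACGTG.
Tars (chr15:11399659-11399808, - strand): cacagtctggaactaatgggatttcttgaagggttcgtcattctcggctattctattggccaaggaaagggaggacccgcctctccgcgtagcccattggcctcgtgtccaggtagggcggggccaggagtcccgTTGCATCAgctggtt
Aars (chr8:111033692-111033841, + strand): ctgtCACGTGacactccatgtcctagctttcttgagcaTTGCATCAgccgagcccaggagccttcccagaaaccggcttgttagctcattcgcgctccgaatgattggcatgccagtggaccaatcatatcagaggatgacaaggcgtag
Iars (chr13:49681980-49682129, + strand): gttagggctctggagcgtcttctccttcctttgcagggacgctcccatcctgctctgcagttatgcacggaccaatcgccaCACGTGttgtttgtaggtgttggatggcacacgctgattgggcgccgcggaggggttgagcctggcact
Farsb (chr1:78488898-78489047, - strand): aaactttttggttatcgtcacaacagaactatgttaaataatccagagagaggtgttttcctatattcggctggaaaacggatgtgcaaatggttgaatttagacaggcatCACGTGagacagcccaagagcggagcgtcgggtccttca
Gars (chr6:55037851-55038000, + strand): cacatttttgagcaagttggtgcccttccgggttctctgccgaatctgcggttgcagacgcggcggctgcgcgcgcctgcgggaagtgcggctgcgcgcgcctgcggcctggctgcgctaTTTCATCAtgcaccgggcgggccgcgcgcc
In the whole 300 bases, on either strand, TGATGNAA was found for 5 of 13 cytosolic genes (Aars, Gars, Iars, Tars and Yars) and 0 of 14 mitochondrial genes, against 3.97% of 32851 promoters. CACGTG was found for 4 of 13 cytosolic genes (Aars, Farsb, Iars and Tars) and 1 of 14 mitochondrial genes (Ears2), against 7.15% of promoters. Further searches for TTATGNAA matched Vars2 (3.38% of promoters) and for GACGTCA matched Eprs and Wars2 (3.21% of promoters). The matches in Yars and Ears2, 1 of those in Iars and in Aars and the CACGTG of Tars lay just after the start and are not printed. A match is a description of these letters and was not tested against expression.

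Library totals were between 5830040 and 26649153 reads in 120 liver libraries and between 6978002 and 11607273 in 23 BAT libraries (intervals from them would cover counting error only, since reads carry no molecular tags). Within a regimen no 2 libraries were near duplicates. The chi-square per gene was at least 9.5 over 1380 pairs of liver libraries and 6.05 over 121 pairs of BAT libraries. Libraries of different regimens or tissues were not compared in this way. Liver replicates are labelled as biological duplicates with the letters A and B, and BAT has 1 animal at each time point. The letters are not exchangeable in liver: reads from the mitochondrial genome made up on average 13.72% in CR-day letter A and 13.25% in AL letter B, against 22.78% to 32.11% in the other 8 sets of 12 libraries. Hepatocyte markers summed to between 35600 and 103000 CPM (read counts scaled to the size of the library) in liver and to at most 1.34 CPM in BAT, where brown adipocyte markers summed to between 1770 and 4750 CPM. The labelled tissues thus carried their defining markers. Residual spread or the clock genes set 5 liver libraries apart (AL CT00A, CR-day CT08B and CT16B, TR-day CT00A and CT44A) and 2 BAT libraries (CR-day CT24B and CT32B), so the rhythm counts and the level counts that rest on them are given with and without them.

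Per length, cytosolic synthetase transcripts stood above the mitochondrial ones in both tissues. Levels are the authors' RPKM, which allows for gene length as well as for library size. In liver the median level was 6.88 RPKM for 20 cytosolic genes and 1.48 RPKM for 16 mitochondrial genes, and in BAT the medians were 4.35 and 1.64 RPKM. Tars, which charges threonine, had the highest cytosolic level in liver at 48.4 ± 19.7 RPKM (SD, n = 120), followed by the asparaginyl enzyme Nars at 34.9 ± 6.43 RPKM, and the spreads of these neighbours overlap. Farsa stood at 1.44 ± 0.81 RPKM over all liver libraries, although Farsb, the gene of its partner subunit, stood at 9.49 ± 1.67 RPKM. Farsa, Wars and Vars were near each other at the low end of the cytosolic genes, and their order depended on the regimen: in TR-night the means were 0.98 RPKM for Farsa, 0.851 RPKM for Vars and 0.819 RPKM for Wars. Among mitochondrial genes in liver the leucyl enzyme Lars2 had means of 16.3 RPKM in CR-day, 6.48 RPKM for TR-day, 7.68 RPKM for CR-night, 9.21 RPKM in TR-night and 20.4 RPKM in AL. It was the highest mitochondrial gene in CR-day and AL, while Iars2 was above it with 8.63 RPKM in TR-day and 8.21 RPKM in CR-night and level with it at 9.16 RPKM in TR-night. The lowest mitochondrial gene was the methionyl enzyme Mars2 in CR-day (0.343 RPKM) and AL (0.348 RPKM), and the prolyl enzyme Pars2 in TR-day (0.151 RPKM), CR-night (0.19 RPKM) and TR-night (0.124 RPKM). In BAT the glycyl enzyme Gars was the highest cytosolic gene at 18.1 ± 4.37 RPKM (SD, n = 24) and the valyl enzyme Vars the lowest at 1.04 ± 0.29 RPKM. Lars2 was the highest of all 36 genes in BAT at 67.9 ± 35.7 RPKM, and Ears2 was the lowest at 0.459 ± 0.192 RPKM. Reads from the mitochondrial genome made up on average 61.4% of BAT libraries and 25.9% of liver libraries. Their part in these levels was not tested.

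Tars had the smallest adjusted p for a daily rhythm among the 36 genes in each of the 5 liver regimens, and its peak lay at the other end of the day in day-fed mice. At CT 12 the 4 libraries had 180, 182, 191 and 187 CPM in CR-day and 226, 180, 250 and 203 CPM in TR-day. At the same time they had 65.0, 81.2, 66.6 and 69.4 CPM in CR-night, 52.9, 69.6, 58.6 and 42.2 CPM in TR-night, and 88.5, 57.2, 79.1 and 48.1 CPM in AL. Every day-fed library was above every night-fed and every AL library at CT 12. At CT 0 the order was turned round: 60.2, 63.0, 57.9 and 71.1 CPM in CR-day and 173, 72.2, 77.9 and 52.6 CPM in TR-day, against 163, 223, 232 and 190 CPM in CR-night, 127, 230, 319 and 269 CPM in TR-night and 250, 189, 173 and 184 CPM in AL. The 1 overlapping day-fed value at CT 0, 173 CPM, came from TR-day CT00A, a library whose clock genes also stood apart.

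**Figure D1:**
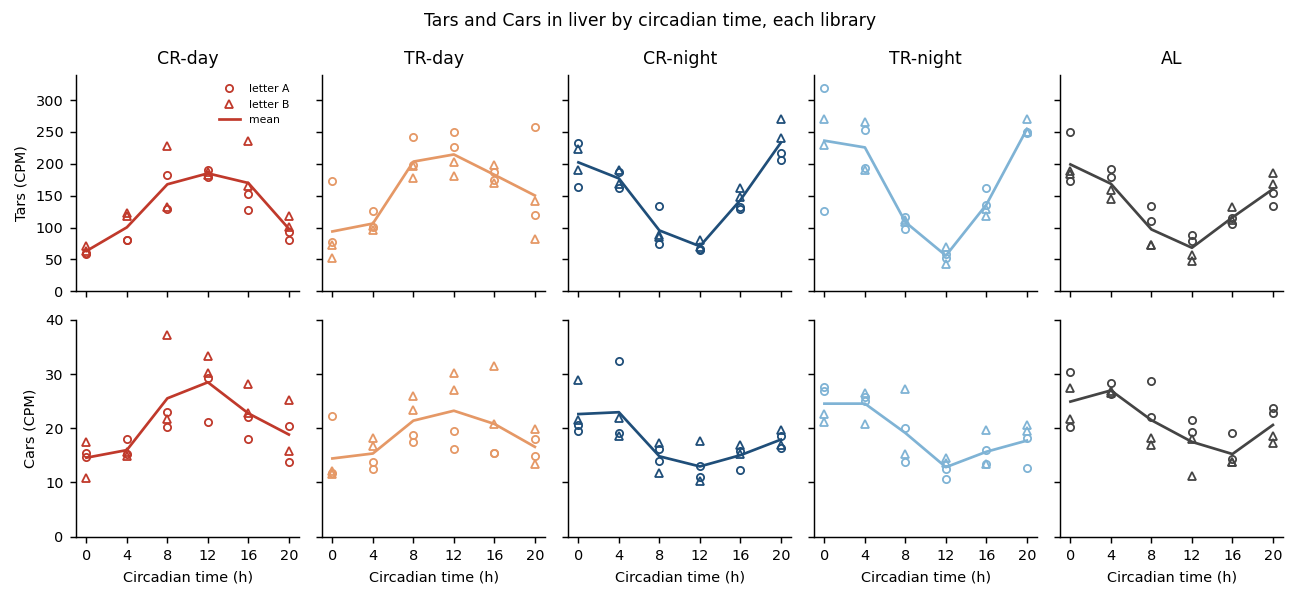
Level of Tars (threonyl) and Cars (cysteinyl) in liver in CPM (vertical axis) by circadian time in h (horizontal axis), in 1 panel for each feeding regimen; each point is 1 library and the line joins the means. Tars was near 185 CPM at CT 12 in CR-day and near 68.2 CPM at CT 12 in AL.

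The fitted 24 h curve of Tars peaked at CT 12.0 ± 0.50 h (SE) in CR-day, CT 12.4 ± 0.57 h in TR-day, CT 22.6 ± 0.46 h in CR-night, CT 23.4 ± 0.38 h in TR-night and CT 23.7 ± 0.52 h in AL. Its amplitude, mean to peak on the log2 scale, was 0.77 ± 0.10 in CR-day, 0.67 ± 0.10 for TR-day, 0.83 ± 0.10 for CR-night, 1.01 ± 0.10 in TR-night and 0.74 ± 0.10 in AL. These amplitudes correspond to peak to trough folds of 2.90, 2.53, 3.15, 4.06 and 2.80 in the same order of regimens. Tars was rhythmic in all 5 by the quasi-likelihood F test of edgeR, adjusted by the Benjamini-Hochberg method over all 11926 genes tested, with adjusted p = 4.91e-08 in CR-day, 2.19e-05 for TR-day, 1.43e-09 for CR-night, 1.38e-12 in TR-night and 1.45e-07 in AL. In libraries of letter A alone the TR-day value was adjusted p = 0.0694, and the other 4 remained past the threshold of 0.05 within each letter.

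Cars, which charges cysteine, was the only other gene of the 36 that was rhythmic in all 5 liver regimens. At CT 12 it had 21.1, 33.3, 29.2 and 30.2 CPM in CR-day and 16.2, 27.0, 19.5 and 30.2 CPM in TR-day, against 11.1, 17.5, 12.9 and 10.2 CPM in CR-night, 10.6, 14.5, 12.5 and 13.6 CPM in TR-night and 21.4, 18.1, 19.3 and 11.1 CPM in AL. CR-day values at CT 12 were above all night-fed values but met the AL values, where the highest library had 21.4 CPM. Its peak was at CT 12.1 ± 0.67 h in CR-day and CT 12.1 ± 0.88 h in TR-day, against CT 0.78 ± 0.75 h in CR-night, CT 1.85 ± 0.69 h in TR-night and CT 2.62 ± 0.80 h in AL. Its amplitude was 0.47 in CR-day, 0.36 for TR-day, 0.42 for CR-night, 0.46 in TR-night and 0.40 in AL, each with an SE of 0.083. The adjusted p was 3.71e-05 in CR-day, 0.00402 for TR-day, 0.00013 for CR-night, 6.67e-05 in TR-night and 0.00113 in AL. With letter A libraries alone the TR-day and AL values were 0.834 and 0.0563, and with letter B alone the TR-night value was 0.0943.

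In the main fit more cytosolic than mitochondrial genes were rhythmic in each liver regimen. The classes also differed in level, with liver medians of 6.88 RPKM for cytosolic and 1.48 RPKM for mitochondrial genes. The part of level in these counts was not tested. In CR-day liver 6 of 20 cytosolic and 1 of 16 mitochondrial genes were rhythmic, where 16.4% of all genes tested were. In TR-day liver the counts were 7 and 1, against 15.5% of all genes. CR-night liver had 8 cytosolic and 5 mitochondrial rhythmic genes, against 35.3% of all genes, and TR-night liver had 7 and 2, against 26.4%. In AL liver the counts were 2 and 0, against 12.4% of all genes. As shares, the cytosolic genes stood at 30% with CR-day, 35% with TR-day, 40% with CR-night, 35% with TR-night and 10% in AL, and the mitochondrial genes at 6.25%, 6.25%, 31.2%, 12.5% and 0%. The cytosolic share was above its background in all regimens but AL and the mitochondrial share below it in each, and these differences carry no test. Their side depended on the processing. In AL the cytosolic share was 20% against 12.3% of all genes without the libraries that stood apart, 20% against 13.6% by DESeq2 and 25% against 19.2% under an offset for GC content and gene length. In CR-night it was 30% against 35.6% with DESeq2 size factors. The order of the classes also depended on the setting. In CR-night the cytosolic and mitochondrial shares were 30% and 31.2% with DESeq2 size factors and also without the low count filter. With 2 harmonics they were 25% and 31.2%, and in TR-day with letter A alone both were 0%. Over 11 settings the cytosolic share was above the background in 11 for CR-day, 10 for TR-day, 8 for CR-night, 10 for TR-night and 7 for AL, and the mitochondrial share in 2 for CR-night and 0 for the other regimens. Without the 5 liver libraries that stood apart the counts over all 36 genes were 6 in CR-day, 11 for TR-day, 14 for CR-night, 10 in TR-night and 4 in AL. The background was then 17.5%, 19.1%, 39.1%, 29.2% and 12.3% in the same order. The TR-day count rests on letter B, with 9 genes in letter B libraries alone (10.9% of all genes) and 0 in letter A libraries alone (5.63%).

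**Figure D2:**
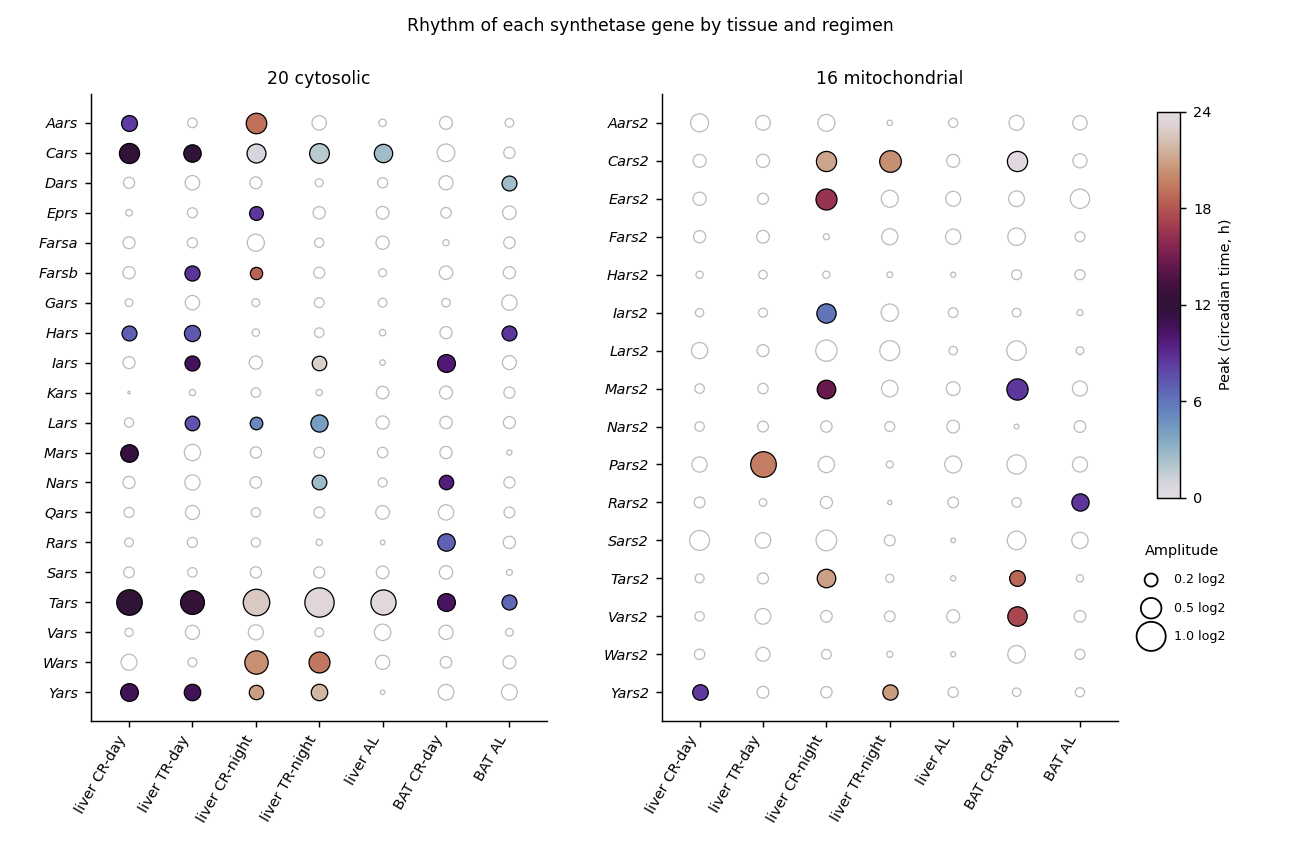
Rhythm of the 36 genes (rows, cytosolic in the left panel and mitochondrial in the right) in 7 groups (columns, liver CR-day, TR-day, CR-night, TR-night and AL, then BAT CR-day and AL); circle area shows the fitted amplitude on the log2 scale, and circles are filled with a colour for peak time in h where the adjusted p was under 0.05. Tars and Cars are filled in all 5 liver columns, and 6 cytosolic and 7 mitochondrial rows have no filled circle.

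Other called cytosolic genes of the day-fed livers peaked in the subjective day. With Tars and Cars included, 66.7% of the called cytosolic genes peaked there in CR-day and 71.4% in TR-day. The share over all rhythmic genes was 48.2% in each, and the difference carries no test. Yars, the tyrosyl enzyme, peaked at CT 10.8 ± 0.90 h in CR-day (adjusted p = 0.00343) and CT 10.7 ± 1.04 h in TR-day (0.0216). The histidyl enzyme Hars peaked at CT 6.92 ± 0.96 h in CR-day (0.00673) and CT 7.28 ± 0.82 h in TR-day (0.00177). The alanyl enzyme Aars (CT 8.33 ± 1.30 h, adjusted p = 0.0335) and the methionyl enzyme Mars (CT 11.6 ± 1.12 h, 0.0452) were rhythmic in CR-day, and Farsb (CT 8.62 ± 0.84 h, 0.0054), Lars (CT 7.38 ± 0.95 h, 0.0202) and Iars (CT 10.5 ± 1.03 h, 0.0392) in TR-day. Lars and Iars charge leucine and isoleucine and, like Mars, belong to the multi-synthetase complex. Hars lost its CR-day call without the libraries that stood apart (adjusted p = 0.0755).

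In night-fed livers the called cytosolic peaks lay on both sides of the day, and 3 of the 8 in CR-night and 3 of the 7 called for TR-night fell in the subjective day. These were 37.5% and 42.9%, where 50% and 48.5% of all rhythmic genes peaked there. The shares carry no test. Aars peaked at CT 19.0 ± 0.78 h in CR-night (adjusted p = 0.000146), with a fitted peak to trough fold of 1.99. Its 4 libraries at CT 20 had 164, 143, 214 and 193 CPM in CR-night, against 201, 183, 189 and 202 CPM in AL, so that the AL values lay inside the CR-night range. Wars, the tryptophanyl enzyme, known in other settings as interferon-inducible, peaked at CT 20.2 ± 0.89 h in CR-night (0.00147) and CT 19.3 ± 1.11 h in TR-night (0.025). Yars peaked at CT 20.8 ± 1.36 h in CR-night (0.0465) and CT 21.8 ± 1.05 h in TR-night (0.0249). Lars peaked in the subjective day instead, at CT 5.17 ± 1.29 h in CR-night (0.0364) and CT 4.20 ± 0.69 h in TR-night (4.08e-05). Eprs (CT 8.44 ± 1.17 h, 0.0279) and Farsb (CT 18.5 ± 1.28 h, 0.0411) were rhythmic in CR-night, and Iars (CT 22.9 ± 1.10 h, 0.0222) and Nars (CT 2.65 ± 1.23 h, 0.0439) in TR-night. Farsa, Gars, Kars, Qars, Sars and Vars were rhythmic in none of the 7 groups.

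The 5 rhythmic mitochondrial genes of CR-night liver were 31.2% of the 16, near the 35.3% of all genes. Tars2 peaked at CT 20.9 ± 0.94 h (adjusted p = 0.00337), Iars2 at CT 6.05 ± 0.97 h (0.00444), Ears2 at CT 16.4 ± 0.97 h (0.0049), Mars2 at CT 14.6 ± 1.11 h (0.0111) and Cars2 at CT 21.1 ± 1.06 h (0.0146). Iars2, the isoleucyl enzyme, had 114, 147, 67.5 and 118 CPM at CT 4 and 65.3, 63.7, 58.7 and 82.9 CPM at CT 16 in CR-night, and values of the 2 times overlap in 1 library each. Cars2 was also rhythmic in TR-night (CT 20.2 ± 0.92 h, 0.0106), together with the tyrosyl enzyme Yars2 (CT 20.7 ± 1.24 h, 0.048). Yars2 was the 1 mitochondrial gene called in CR-day (CT 8.40 ± 1.19 h, 0.0298), and Pars2 the 1 called in TR-day (CT 19.6 ± 0.84 h, 0.00534). Yars2 had adjusted p = 0.088 in CR-day without the libraries that stood apart, which left 0 mitochondrial genes called there. Pars2 is close to the detection limit in TR-day, where its level was 0 to 1.68 CPM with a median of 0.558 CPM. The median amplitude of the 16 mitochondrial genes was 0.33 in CR-night, against 0.27 over all genes tested there. In the other 4 regimens it was below that of all genes, at 0.16 against 0.19 in CR-day, 0.17 against 0.21 for TR-day, 0.14 against 0.24 in TR-night and 0.13 against 0.18 in AL. The cytosolic median was also below that of all genes in CR-day (0.17), CR-night (0.18), TR-night (0.14) and AL (0.16). Only in TR-day was it above, at 0.245. A low median amplitude was thus not particular to the mitochondrial genes. Aars2, Fars2, Hars2, Lars2, Nars2, Sars2 and Wars2 were rhythmic in no group.

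Set against AL, day feeding changed the rhythm of 5 genes under CR and of 4 under TR. In CR-day against AL the changed genes were Tars (adjusted p = 2.47e-14), Cars (1.46e-07), Yars (0.0375) and Wars (0.0452) among cytosolic genes and Yars2 (0.0298) among mitochondrial ones, 5 of 36 genes where 21.9% of all genes changed. The share of the 36 was 13.9%, below the background here but not in every setting: it was 27.8% against 24.3% without the libraries that stood apart and 38.9% against 32.7% with an intercept for each regimen and letter. Tars and Cars had the smallest adjusted p of the 36. In TR-day against AL the changed genes were Tars (7.34e-12), Cars (9.39e-06), Farsb (0.014) and Pars2 (0.00174), 4 of 36 where 16.3% of all genes changed. Under an offset for GC content and gene length Farsb had adjusted p = 0.0571, and without the libraries that stood apart Yars2 had 0.13 in CR-day. The fitted peak of Tars moved by -11.7 ± 0.72 h in CR-day relative to AL and by -11.3 ± 0.77 h in TR-day, which on a 24 h circle is nearly the greatest possible distance. The peak of Cars was later by 9.52 ± 1.04 h in CR-day and by 9.45 ± 1.19 h in TR-day. Both comparisons share the AL libraries. Without the libraries that stood apart 10 genes changed against AL with CR-day feeding (24.3% of all genes) and 6 with TR-day feeding (18.9%). Within letters, Tars passed in each letter in both comparisons, and Cars passed in each except letter A of TR-day (adjusted p = 0.136).

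Under night feeding no gene of the 36 had a changed rhythm against AL by edgeR's quasi-likelihood test. In CR-night the background was 0.0252% of all genes (3 of 11926), and 4 of the 36 genes had an unadjusted p under 0.05. In TR-night it was 0.00839% (1 of 11926), and 0 of the 36 had an unadjusted p under 0.05. DESeq2 and the letters taken alone also called none of the 36. Tars peaked 1.04 ± 0.69 h earlier in CR-night than in AL and 0.216 ± 0.64 h earlier in TR-night, and both shifts are within about 2 standard errors.

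CR-day against CR-night changed the rhythm of 9 cytosolic and 5 mitochondrial genes, 38.9% of the 36, where 34% of all genes changed. When the libraries set apart were left out 9 and 8 changed, 47.2% where 39.4% of all genes did, and Hars then had adjusted p = 0.0831. Tars (adjusted p = 2.9e-15), Cars (5.63e-09), Aars (5.07e-06) and Yars (0.000142) led the cytosolic genes, followed by Wars, Farsb, Hars, Mars and Farsa. Ears2 (0.00131), Tars2 (0.00755), Cars2 (0.00796), Yars2 (0.0112) and Sars2 (0.021) were the mitochondrial ones. At CT 20 the 4 libraries of Aars had 150, 95.5, 128 and 100 CPM in CR-day, against 164, 143, 214 and 193 CPM in CR-night. At CT 4 they had 226, 129, 214 and 180 CPM in CR-day, against 109, 61.4, 134 and 87.4 CPM in CR-night. The 2 groups thus crossed over within a day, with 1 pair of overlapping values at each time. Its peak was 10.7 ± 1.52 h earlier in CR-day, and that of Yars 10.0 ± 1.63 h earlier.

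TR-day against TR-night changed the rhythm of 7 cytosolic and 3 mitochondrial genes, 27.8% of the 36, where 25.8% of all genes changed. Leaving out the libraries set apart, 9 and 2 changed, 30.6% where 29.5% of all genes did, and Cars2 then had adjusted p = 0.0659. Tars (adjusted p = 1.19e-15), Cars (4.11e-07), Yars (0.000333) and Iars (0.000452) led, with Farsb, Nars and Gars, and the mitochondrial genes were Yars2 (0.0192), Pars2 (0.0256) and Cars2 (0.0388). Lars was rhythmic in both with its peak later by 3.18 ± 1.18 h in TR-day, and its change was not past the threshold (adjusted p = 0.0843). With letter A alone 3 of the 36 genes changed (17.8% of all genes) and with letter B alone 10 (17.9%). Tars and Cars passed in each letter in both comparisons of day with night.

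In BAT, Tars was rhythmic too, and in both regimens its fitted peak lay in the subjective day. At CT 12 it had 24.8 and 24.7 CPM in CR-day and 20.9 and 19.5 CPM in AL, and at CT 20 it had 15.0 and 14.4 CPM in CR-day and 17.6 and 16.6 CPM in AL. CR-day libraries were above AL at CT 12 and below AL at CT 20. The peak was at CT 10.4 ± 0.57 h with amplitude 0.37 ± 0.060 in CR-day (adjusted p = 0.00485 over 10966 genes) and at CT 6.62 ± 0.80 h with amplitude 0.26 ± 0.055 in AL (0.0335, or 0.0653 under the offset for GC content and gene length). The change of its rhythm between CR-day and AL in BAT was not past the threshold (adjusted p = 0.0728), with the peak 3.80 ± 0.99 h later in CR-day.

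**Figure D3:**
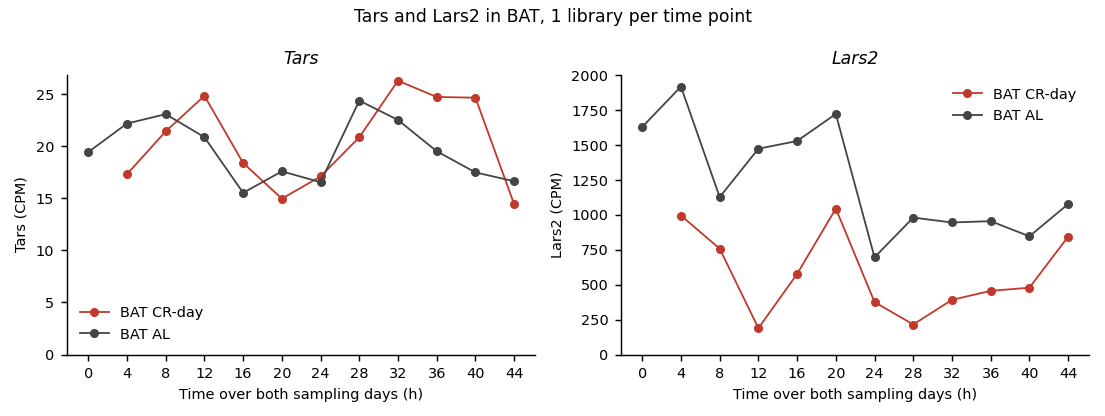
Levels of Tars and Lars2 in BAT in CPM (vertical axes) by sampling time in h over both days (horizontal axis), for CR-day and AL; each point is 1 library of 1 animal. Tars in CR-day is near 24.8 CPM at CT 12 and near 14.7 CPM at CT 20, and Lars2 lies lower in CR-day than in AL at each time sampled in both.

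BAT of CR-day mice had 4 cytosolic and 4 mitochondrial rhythmic genes, where 15.1% of all genes were rhythmic. Beside Tars these were Rars (CT 6.80 ± 0.76 h, adjusted p = 0.00621), Iars (CT 9.88 ± 0.71 h, 0.00978), Nars (CT 9.69 ± 0.75 h, 0.0358), Mars2 (CT 8.51 ± 0.81 h, 0.0121), Vars2 (CT 17.3 ± 0.98 h, 0.0133), Cars2 (CT 23.8 ± 0.84 h, 0.0196) and Tars2 (CT 18.7 ± 0.97 h, 0.0257). The 4 cytosolic peaks lay within the subjective day and 3 of the 4 mitochondrial peaks outside it. Of all genes rhythmic in CR-day BAT, 49.4% peaked in the subjective day, and the split of these few genes carries no test. BAT of AL mice had 3 cytosolic and 1 mitochondrial, where 10.5% of all genes were rhythmic: Tars, Hars (CT 8.53 ± 0.87 h, 0.0394), Dars (CT 2.58 ± 0.95 h, 0.0494) and Rars2 (CT 8.56 ± 0.99 h, 0.0364). The aspartyl enzyme Dars (adjusted p = 0.0346), Farsb (0.0482) and Mars2 (0.0213) changed rhythm in CR-day against AL, 3 of 36 where 12.1% of all genes changed. Mars2, the mitochondrial methionyl enzyme, had 9.54 and 9.89 CPM at CT 8 in CR-day, against 6.72 and 5.65 CPM in AL, and 4.09 and 4.35 CPM at CT 20 in CR-day, against 8.32 and 6.12 CPM in AL. The groups did not overlap at either time. Under the offset the rhythm of Mars2 in CR-day and its change had adjusted p = 0.14 and 0.0735. Without the 2 libraries that stood apart the rhythm of Nars in CR-day had adjusted p = 0.089 and the changed rhythm of Farsb had 0.0529. The counts were then 8 rhythmic in CR-day (15% of all genes), 4 in AL (12.4%) and 2 changed (13.7%).

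The response of the rhythm to CR-day was tested between the tissues in 1 model of 12799 genes. Tars alone of the 36 differed (adjusted p = 0.000194), where 4.31% of all genes did. Its fitted peak was 3.80 ± 0.99 h later in CR-day than in AL in BAT and moved by -11.7 ± 0.72 h in liver. With letter A or letter B alone for liver, the adjusted p for Tars was 3.19e-06 and 7.35e-05.

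Mean levels over the day in BAT differed for 1 gene. Lars2 had between 189 and 1050 CPM with a median of 479 CPM in CR-day, against between 696 and 1920 CPM with a median of 1100 CPM in AL, and the ranges overlap. It fell by 1.10 ± 0.25 on the log2 scale (fold 0.466, adjusted p = 0.0103), 1 of 36 genes lower and 0 higher, where 3.83% of all genes were lower and 2.74% higher. By sampling day its median was 759 CPM on day 1 and 424 CPM on day 2 in CR-day, against 1580 CPM and 951 CPM in AL. Markers of other tissue moved with this call. The 4 skeletal muscle markers summed to between 52.6 and 608 CPM with a median of 349 CPM in CR-day, against between 1.61 and 1710 CPM with a median of 1270 CPM in AL. The 5 brown adipocyte markers had a median sum of 2620 CPM in CR-day, against 3640 CPM in AL. The part of either shift in the BAT results was not tested. All BAT libraries of CR-day carry letter B and all of AL letter A, so letter and regimen cannot be told apart. In bulk tissue, fewer cells of a type and less RNA for each cell cannot be told apart either. No gene of the 36 responded in level to CR-day differently in BAT and liver, where 2.16% of all genes did, and 0 of the 36 had an unadjusted p under 0.05. With liver letter A alone or letter B alone, 21 and 27 of the 36 passed, where 5703 of 12497 and 7189 of 12557 genes did.

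Between tissues on free feeding, most cytosolic synthetases were lower in BAT and most mitochondrial ones that differed were higher. In AL BAT against AL liver 12 genes were higher and 16 lower, where 36.5% of all genes were higher and 41.9% lower. The median shift over all genes was -0.10 on the log2 scale. AL BAT also carried skeletal muscle markers, with a median sum of 1270 CPM (1.61 to 1710 CPM), against 0.0229 CPM in AL liver. Reads from the mitochondrial genome averaged 61.16% in AL BAT, against 22.78% in letter A and 13.25% in letter B of AL liver. The part of muscle or of these reads in the tissue differences was not tested. Among 20 cytosolic genes 14 were lower and 3 higher, and among 16 mitochondrial genes 2 were lower and 9 higher. Tars had between 15.5 and 24.4 CPM with a median of 19.5 CPM in AL BAT, against between 48.1 and 250 CPM with a median of 133 CPM in AL liver, with no overlap. It was lower by a log2 difference of -2.53 ± 0.11 (fold 0.173, adjusted p = 2.5e-31). Aars followed with -1.95 ± 0.12 (1.11e-23), and Eprs (-0.93) and Cars (-0.92) were lower as well. Gars was the cytosolic gene with the largest rise in BAT, at a log2 difference of 1.31 ± 0.090 (3.87e-21). Its values were between 56.6 and 90.6 CPM in AL BAT and between 18.9 and 46.4 CPM in AL liver, again with no overlap. Wars (0.93) and Hars (0.35) were the other cytosolic genes higher in BAT.

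**Figure D4:**
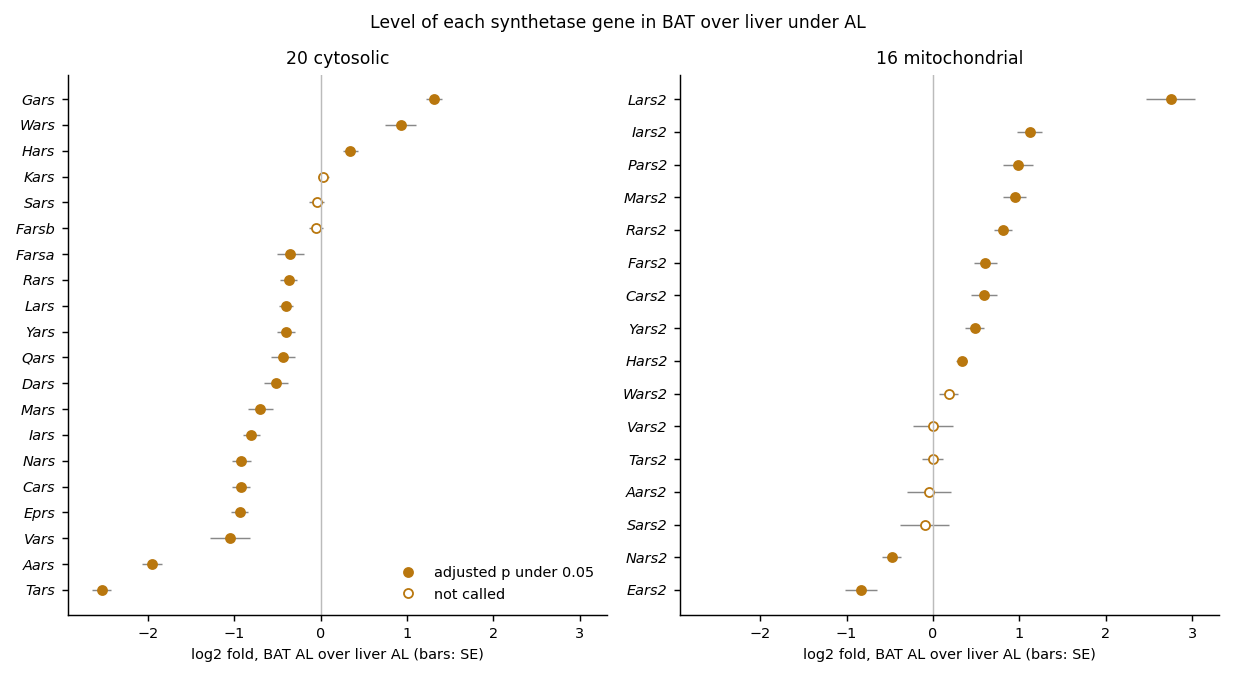
Log2 fold of AL BAT over AL liver with its SE (horizontal axis) for the 36 genes (rows), cytosolic and mitochondrial in separate panels, with filled points where the adjusted p was under 0.05. Tars lies lowest at -2.53 and Lars2 highest at 2.75.

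Among mitochondrial genes Lars2 was higher in AL BAT by 2.75 ± 0.28 on the log2 scale (adjusted p = 9.26e-14), Iars2 by 1.12 ± 0.15 (2.71e-10), Rars2, the arginyl enzyme, by 0.81 ± 0.11 (4.43e-10) and Mars2 by 0.95 ± 0.14 (4.59e-09). Ears2 (-0.83, 4.09e-05) and Nars2 (-0.48, 0.000149) were lower. With liver letter A alone 17 genes were higher and 14 lower, where 5203 and 5038 of 12497 genes were. With letter B alone the counts were 12 and 20, where 4976 and 5386 of 12557 genes were. The differences of Tars (-2.57 and -2.38) and Lars2 (3.80 and 2.19) kept their sign in each letter. Lars2 in AL liver averaged 8.95 RPKM in letter A and 31.9 RPKM in letter B.

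Mean levels in CR-day liver differed from AL for few genes, and the direction depended on the letter. CR-day against AL had 0 genes higher and 3 lower, where 12.6% of all genes were higher and 6.98% lower: Fars2, the mitochondrial phenylalanyl enzyme (-0.39 ± 0.12, adjusted p = 0.0145), Aars (-0.29 ± 0.10, 0.0277) and Tars2 (-0.26 ± 0.10, 0.0457). Fars2 had between 6.58 and 18.2 CPM in CR-day with a median of 13.8 CPM, against between 4.77 and 25.5 CPM with a median of 17.1 CPM in AL, and the ranges overlap. Within letter A the log2 differences were 0.015 for Fars2, 0.029 for Aars and 0.29 for Tars2, and within letter B they were -0.84, -0.67 and -0.87, so that each changed sign. Of the 36 genes, 35 had opposite signs in the letters in this comparison, against 3 for TR-day, 6 for CR-night and 3 in TR-night. Under the offset for GC content and gene length 1 gene was higher and 4 lower (820 and 1055 of all 11926 genes), and Aars had adjusted p = 0.106. Tars2 had adjusted p = 0.0675 without the libraries that stood apart, and 0 genes were then higher and 2 lower (1126 and 676 of all 11941 genes). Letter A libraries alone gave 12 genes higher and 12 lower, where 3635 and 3438 of all 11873 genes tested were. Letter B libraries alone gave 14 and 17, where 4569 and 4520 of all 11822 genes were.

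TR-day, CR-night and TR-night against AL gave calls for nearly the whole family and for about 4 in 5 of all genes. TR-day had 14 of 36 genes higher and 19 lower, against 38.3% and 42.1% of all genes, CR-night 12 and 19, against 38.1% and 41.1%, and TR-night 14 and 18, against 39.4% and 41.3%. With an offset for GC content and gene length the counts were 6 higher and 19 lower in TR-day, 3 and 20 in CR-night and 6 and 20 in TR-night, and the median of all genes under it was -0.11 in TR-day and -0.11 in TR-night. Over all 11926 genes the offset gave 2501 higher and 4772 lower in TR-day, 2409 and 4422 in CR-night and 2510 and 4720 in TR-night. Without the libraries that stood apart the counts of the 36 were 13 higher and 19 lower in TR-day, 15 and 19 in CR-night and 15 and 18 in TR-night. Over all 11941 genes these were 4671 and 4968, 4685 and 4899, and 4764 and 4989. When the libraries of each regimen and letter were summed, 0 of the 36 genes passed in any of these comparisons, although 17 for TR-day, 15 for CR-night and 21 in TR-night had an unadjusted p under 0.05. The 3 comparisons share the AL libraries, and the macrophage markers had medians of 44.0 CPM in TR-day, 51.1 CPM in CR-night and 40.0 CPM in TR-night, against 79.5 CPM in AL, a difference whose part in the result was not tested.

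**Figure D5:**
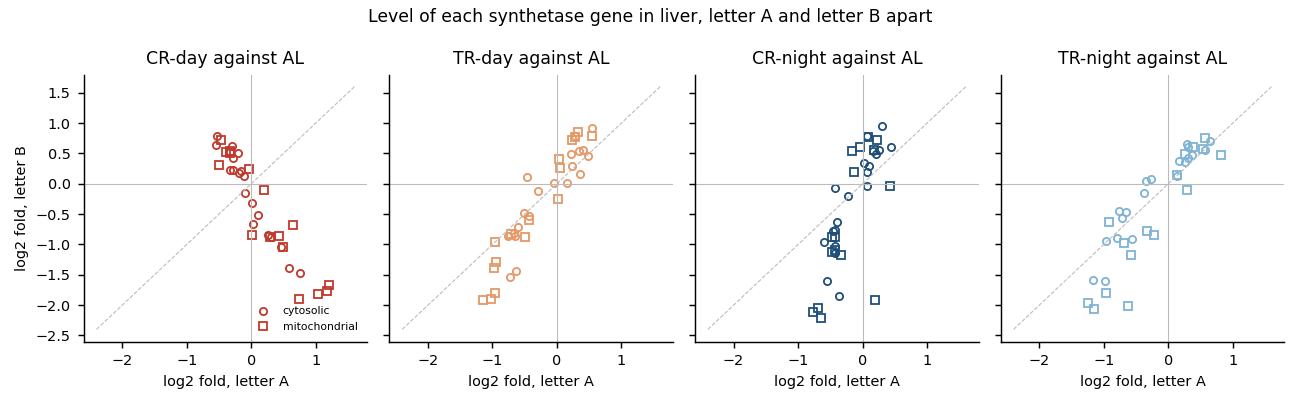
Log2 fold against AL within letter A (horizontal axis) and within letter B (vertical axis) for the 36 genes in liver, in 1 panel for each of CR-day, TR-day, CR-night and TR-night. In CR-day 35 of the 36 genes have opposite signs in the letters, as Tars2 has with 0.29 in letter A and -0.87 in letter B, and in the other panels 30 or more keep their sign.

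Vars2, Tars2, Mars and Wars were lower in TR-day, CR-night and TR-night than in AL, in each letter and under the offset. Vars2, the mitochondrial valyl enzyme, had between 1.76 and 8.03 CPM with a median of 4.35 CPM in TR-day, against between 2.65 and 18.4 CPM with a median of 12.9 CPM in AL, and the ranges overlap. Its log2 difference from AL was -1.56 ± 0.17 in TR-day (adjusted p = 2.03e-13), -1.45 ± 0.17 in CR-night (2.67e-12) and -1.47 ± 0.17 in TR-night (1.03e-12). Under the offset these became -0.59, -0.56 and -0.46. Tars2 stood at -0.79 for TR-day, -0.82 for CR-night and -0.84 in TR-night, and at -0.63, -0.68 and -0.70 under the offset. Mars stood at -0.83 for TR-day (1.77e-11), -0.79 for CR-night (9.7e-11) and -0.96 in TR-night (1.09e-13), and at -0.40, -0.39 and -0.52 under the offset. Wars stood at -1.08, -1.11 and -1.34, and at -0.66, -0.70 and -0.89 under the offset. Eprs was higher by 0.51 ± 0.071 in CR-night (4.25e-10) and 0.56 ± 0.071 in TR-night (1.47e-11), but stood at -0.059 and -0.046 under the offset. Dars was higher by 0.71 ± 0.096 in TR-day (2.08e-10) and stood at 0.0024 under the offset.

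Amount of food and time of food were also compared over the 4 restricted regimens. CR against TR had 16 genes higher and 12 lower, where 34.5% of all genes were higher and 27.5% lower, and day against night had 14 and 8, where 31.5% were higher and 23.9% lower. Under the offset these were 12 and 5 for CR against TR and 13 and 2 for day against night, and without the libraries that stood apart 16 and 14 and 15 and 12. The offset called 3149 and 1468 of all 11926 genes for CR against TR and 2736 and 1534 for day against night. Leaving out the libraries gave 4243 and 3649 of all 11941 genes and 4045 and 3396. In letter A libraries alone CR against TR had 18 higher and 15 lower and day against night 15 and 12, while letter B libraries alone gave 0 and 1 and 0 and 0. All genes moved alike. Letter A alone called 4767 and 4565 of 11873 genes and then 4187 and 4129, and letter B alone 5 and 20 of 11822 and then 432 and 320. Pars2 had similar differences of CR against TR in each letter, 0.90 in letter A and 0.82 in letter B (0.87 ± 0.15 over both, adjusted p = 1.91e-06). Vars (1.15 and -0.10) and Aars2 (1.29 and -0.13) did not. Pars2 was still not called in letter B alone or with the libraries of each regimen and letter summed. Its level was the lowest of the mitochondrial genes in TR-day (0.151 RPKM) and TR-night (0.124 RPKM).

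Other genes of the same machinery were tested in the same fits. Of 3 scaffold genes of the multi-synthetase complex, 2 were rhythmic in CR-night liver (35.3% of all genes were), Aimp1 (adjusted p = 0.000325) and Eef1e1 (0.00154). Aimp1 was also rhythmic in AL (0.0474), where 12.4% of all genes were. Of 10 mitochondrial charging partners and translation factors, 2 were rhythmic in CR-day liver (16.4% of all genes were), 5 for TR-day (15.5%), 3 for CR-night (35.3%), 2 in TR-night (26.4%) and 0 in AL (12.4%), so that the counts other than that of TR-day were near or below the background. Qrsl1, a subunit of the amidotransferase that completes the glutamine transfer RNA started by Ears2, was rhythmic in CR-day (CT 7.24 ± 0.73 h, 5.21e-05) and TR-day (CT 7.01 ± 0.75 h, 0.000148), with its peak at CT 18.3 ± 1.15 h in CR-night (0.0142). Gfm1, a mitochondrial elongation factor, was rhythmic in TR-day (0.000711), CR-night (1.37e-05) and TR-night (0.000271). In BAT of CR-day mice Qrsl1 peaked at CT 8.47 ± 0.56 h with amplitude 0.74 (0.000523), and its rhythm changed against AL (0.00088). In level, 8 of these 10 genes were higher in AL BAT than in AL liver and 0 lower, where 36.5% of all genes were higher and 41.9% lower. Their median log2 difference was 0.39, against -0.10 over all genes. Of 5 cytosolic elongation factors, 2 were rhythmic in CR-night (35.3% of all genes) and 2 in TR-night (26.4%), and these few genes allow no statement about the group. Of 3 genes for quality control of charging, 2 were rhythmic in CR-day (16.4%), 1 in TR-day (15.5%) and 1 in CR-night (35.3%). Aarsd1 was called in each of these 3 regimens (0.000516, 0.0253 and 0.0344). No strand setting is given for the counting, so reads of overlapping pairs on opposite strands, such as Mars with Ddit3 (68 bases), Hars with Hars2 (198 bases), Wars with Wdr25 (507 bases), Iars2 with Rab3gap2 (2034 bases) and Farsb with Sgpp2 (2315 bases), could not be told apart.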

How the data were processed

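The members and the gene lists were chosen with earlier results of these data known. Per the file headers, the deposited tables hold raw read counts per gene and the authors' RPKM values; the submitters' processing notes name FastQC, cutadapt, STAR and featureCounts, and versions, genome build and strand setting are not given in the sources used here. The RPKM tables' chromosome, start, end and gene length columns are as deposited. 1 column of per-sample values for BAT was not used. It repeated the name of another BAT column, and it was identical to 1 liver column. BAT CR-day at CT 0 of day 1 has RPKM but no counts.

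Counts were filtered with filterByExpr, scaled by TMM and fitted per tissue in edgeR 4.0.16 (R 4.3.3) with a mean and a 24 h cosine curve for each regimen. Quasi-likelihood F tests were adjusted by the Benjamini-Hochberg method over all genes tested, at 0.05, and were tested on simulated data. Peak times and amplitudes are least squares fits to log2 CPM with a prior count of 2. In each comparison up to 4 cytosolic and 4 mitochondrial called genes with the smallest adjusted p were named, and further genes complete a count. Alternatives were DESeq2 1.42.0 (test and size factors), no filter, a GC content and length offset, each letter alone, a letter block, libraries left out, 2 harmonics, an intercept for each letter, and sums of each regimen and letter. Letters mark biological duplicates and were checked for pairing across regimens: deviations correlated by a median of 0.0146 within and 0.0619 across letters, so no pairing was used. By pair of regimens the medians were not uniform, from -0.373 for AL with CR-day to 0.182 for CR-day with CR-night. A pooled median near 0 therefore does not show that the letters share no structure across regimens.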

Additional observations from a re-analysis of the deposited data

Results flagged for a closer look

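The response of the Tars rhythm to CR-day differed between BAT and liver (adjusted p = 0.000194, edgeR's quasi-likelihood test of the difference itself). In BAT the fitted peak was at CT 10.4 ± 0.57 h in CR-day and CT 6.62 ± 0.80 h in AL. In liver it was at CT 12.0 ± 0.50 h in CR-day and CT 23.7 ± 0.52 h in AL. Without the libraries that stood apart the adjusted p was 0.000917. The cause was not tested.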

How the results depend on the processing

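Counts below are of the 36 genes, and the cause of each change was not tested. With each letter left out in turn, 7 to 11 genes were rhythmic in CR-night liver, 0 to 9 in TR-day and 4 to 7 in TR-night. The share of all genes was 23% to 27.9%, 5.63% to 10.9% and 13.2% to 22.3%. The rhythm of 1 to 7 genes then changed in TR-day against AL (9.91% to 11.4% of all genes). In TR-day against TR-night 3 to 10 changed (17.8% to 17.9%). Levels then differed for 24 to 31 genes in CR-day against AL, 1 to 33 in CR against TR and 0 to 27 in day against night. Over all genes tested (11822 or 11873) the counts were 7073 to 9089, 25 to 9332 and 752 to 8316. In CR-day against AL, Aars (0.0287), Fars2 (0.0149) and Tars2 (0.288) were positive in letter A and negative in letter B (-0.67, -0.837 and -0.873 in the same order). In CR against TR, Vars (1.15) and Aars2 (1.29) were positive in letter A and negative in letter B (-0.0985 and -0.129), all on the log2 scale. The replicate block on the letter left every liver count within 1.5 times of its value without the block (5 genes with a changed rhythm in CR-day against AL in both).

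With the offset for GC content and gene length, 6 genes were rhythmic in AL liver (19.2% of all genes) and 15 in TR-night (36.3%). In CR-day against AL 11 changed rhythm (31.8%) and 5 differed in level (1875 of all 11926 genes). In CR against TR 17 differed in level (4617 genes), and 2 differed in rhythm response between tissues (8.84%). Under the offset the log2 difference of Eprs from AL was -0.0587 for CR-night mice and -0.046 for TR-night mice. DESeq2 called 4 genes rhythmic in AL liver (13.6% of all genes) and 5 with a different level in CR-day against AL (2574 of all 11926 genes). Without the libraries that stood apart, 4 were rhythmic in AL liver (12.3% of all genes) and 10 changed rhythm in CR-day against AL (24.3%). With an intercept for each regimen and letter, 11 genes were rhythmic in CR-day (26.1% of all genes), 13 in TR-day (27.6%), 14 in TR-night (39.1%) and 5 in AL liver (20.4%). Rhythms changed for 14 in CR-day against AL (32.7%), 10 in TR-day against AL (26.1%) and 22 in CR-day against CR-night (48.2%). With 2 harmonics, 5 were rhythmic in TR-day liver (12.8% of all genes), 4 in TR-night liver (21.1%), 4 in CR-day BAT (7.18%) and 1 in AL BAT (5.22%). Rhythms changed for 2 in CR-day against AL in liver (16.3%), 5 in TR-day against TR-night (19%) and 1 in CR-day against AL in BAT (5.74%).

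With the libraries of each regimen and letter summed, 0 genes differed in level in CR-day, TR-day, CR-night or TR-night against AL, in CR against TR or in day against night. In none of these did more than 28 genes differ over all genes tested. In BAT, 2 genes were rhythmic in AL without the filter on low counts (7.01% of all genes), and with the first or the second day alone, 0 genes were rhythmic in CR-day or in AL and 0 changed rhythm or level. With 1 day alone each rhythm comparison called between 0.645% and 1.86% of all genes. An alternative chosen after seeing the data used liver letter A alone or letter B alone. In it 21 and 27 genes differed in level response between tissues (5703 of 12497 and 7189 of 12557 over all genes). With letter A 2 differed in rhythm response (9.95% of all genes). Depth limits Pars2 most, which had 0 reads in 1 or more TR-day libraries.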

Other observations

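Genes of the ATF4 pathway other than synthetases were tested in the same fits, where 14 of 17 passed the filter in liver. Of these, 6 were rhythmic in CR-day (16.4% of all genes were), 2 for TR-day (15.5%), 8 for CR-night (35.3%), 5 in TR-night (26.4%) and 3 in AL (12.4%), and the TR-day count is at the background. Atf4 itself was rhythmic in CR-day (CT 7.94, adjusted p = 0.00443), TR-day (CT 7.55, 0.0162), CR-night (CT 21.3, 0.0169) and TR-night (CT 20.6, 0.0129), and in AL its adjusted p was 0.435. Trib3, a pseudokinase that restrains ATF4, peaked at CT 19.8 in CR-day, CT 6.36 in CR-night, CT 5.98 in TR-night and CT 8.19 in AL. Rhythms changed for 6 of the 14 genes in CR-day against AL (21.9% of all genes), for 5 in TR-day against AL (16.3%), for 9 in CR-day against CR-night (34%) and for 5 in TR-day against TR-night (25.8%). In BAT, Atf4 (CT 8.36, 0.00152) was the 1 gene of 14 called rhythmic in CR-day, where 15.1% of all genes were. In AL BAT 4 of the 14 were rhythmic, where 10.5% of all genes were. Rhythms of 3 of the 14 genes changed in CR-day against AL in BAT (12.1% of all genes): Sesn2 (0.014), Slc3a2 (0.0234) and Psat1 (0.0425).

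Of 16 core clock genes in liver, 13 were rhythmic in CR-day, 13 for TR-day, 15 for CR-night, 16 in TR-night and 15 in AL. Rhythms of all 16 changed in CR-day against AL and of 15 in TR-day against AL, and of 0 in CR-night and 0 in TR-night against AL.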
